A study of Oryza sativa with 4 samples.

Results

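The floral organ identity MADS-box genes examined here are MADS1, MADS2, MADS4, MADS6, MADS16, MADS17, MADS24 and MADS45 of rice (Oryza sativa), chosen by symbol or synonym with the Os prefix removed. These 8 genes each have 1 probe set of their own, so they make up 8 of the 17905 genes and 8 of the 57381 probe sets on the array. The name search returned 9 genes, because MADS2 is also listed as a name of LOC4343851. The other names of that gene are MADS18 and MADS28, so it is described with the remaining MADS-box genes and not counted as a member.

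Leaf RNA was hybridised to 4 single-colour arrays, 2 labelled OsRR6 overexpressor and 2 labelled empty vector control. All plants were cultivar Nipponbare and primary transformants (T0 generation) raised from callus on hygromycin-B. The overexpressor plants carried pActnos/Hmz-OsRR6 and the control plants the vector pActnos/Hmz alone. All were grown hydroponically to heading with a day of 12 h at 30 °C and a night of 12 h at 25 °C, and sampled 75 days after germination. The labels do not say whether the arrays of a group came from separate plants or lines, so the p-values rest on a spread between arrays that may be technical. Type-A response regulators such as OsRR6 act as brakes on signalling by the hormone cytokinin, and the comparison asks how leaf transcripts differ in plants that carry an OsRR6 transgene.

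MADS-box proteins are transcription factors that bind DNA as dimers and assemble into larger complexes, and combinations of their classes set which organ a floral meristem forms. In grasses the B class genes specify lodicules and stamens, the E class (SEPALLATA) genes are cofactors in every whorl, and the AGL6 group acts beside the E class. They are best known from spikelets rather than from leaves, where the related FRUITFUL-type genes are part of the switch to flowering.

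The transgene's own gene, OsRR6 (RR6, LOC4337372), read 2264.2 and 1989.4 on the arrays labelled overexpressor, against 2558.7 and 2733.2 on the control arrays, so its signal was not raised as the label would have it, and every direction below is that of the arrays so labelled. Whether the RR6 probe set detects the transcript of the transgene was not tested. All 6 leaf blade genes examined, among them the Rubisco small subunit gene RBCS and the chlorophyll-binding protein gene CAB2R, lay above background on all 4 arrays. Of these 6 genes rcaA1 (log2 change -1.10), PORA (-1.29), PSAG1 (-1.26) and PSB28 (-1.02), all of photosynthesis or chlorophyll synthesis, were lower at an adjusted p of 0.05 in limma, a rule by which 13.1% of all tested probe sets were lower. Background is the 95th percentile of 69 control probe sets for transcripts that do not come from rice, which was 43.4 and 39.2 on the overexpressor arrays and 30.0 and 36.8 on the control arrays. All values are signals on a linear scale that the authors had brought to a common level, with a trimmed mean of 500.1 on each array. The number of arrays limits the precision.

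All 8 floral MADS-box genes lay above background on all 4 arrays of leaf RNA. At an adjusted p of 0.05 in limma, 2 of them, the E class genes MADS1 and MADS24, were lower on the overexpressor arrays, 0 were higher and 6 did not pass. Of all 28629 tested probe sets 13.1% were lower and 15.4% higher by this rule, so a count of 2 in 8 stands near the background and is not read as a property of the group. At an unadjusted p of 0.05 in the same fit, 4 of the 8 were lower and 0 higher, where 17.8% of all tested probe sets were lower. The signals of 6 members were lower in all 4 pairs of an overexpressor and a control array, against 28.3% of the tested probe sets. None was higher in all 4 pairs (39.7% of the tested probe sets were), and MADS16 and MADS17 overlapped between groups. The median log2 change of the members was -0.43, against 0.08 over all tested probe sets. In bulk RNA, fewer cells of a type and less RNA per cell cannot be told apart.

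**Figure D1:**
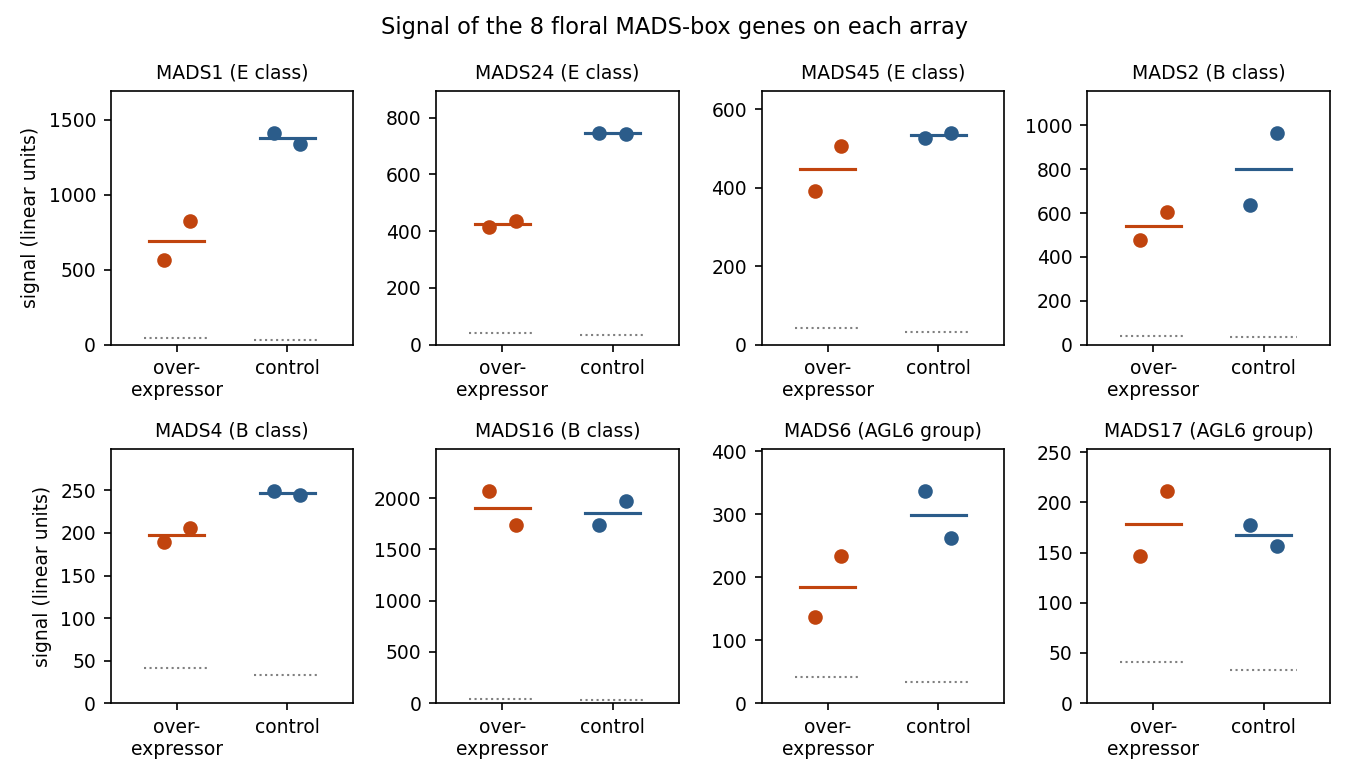
Signal (linear units, axes from 0) of each of the 8 genes on the overexpressor arrays (left of each panel) and the control arrays (right). Points are arrays in the order of replicate 1 and 2, bars are means over 2 arrays, and dotted lines are the mean background level; MADS1 and MADS24 show the widest gaps between groups, and MADS16 and MADS17 overlap.

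The E class was the class with members past the test. MADS1 (LOC4332059), also known as LEAFY HULL STERILE1, which specifies lemma and palea, read 561.8 and 826.1 on the overexpressor arrays and 1411.2 and 1337.3 on the control arrays. Both overexpressor arrays lay far below both control arrays, and the overexpressor arrays differed more from each other than the control arrays did. Its signal fell by 1.01 on the log2 scale (SE 0.19, 95% interval -1.46 to -0.56, limma adjusted p = 0.0105), which is 2.01-fold lower. The call ended without control replicate 1 (limma log2 change -0.97, adjusted p = 0.0538) and in a fit of limma without a trend of the spread with signal (adjusted p = 0.0502), and the change was -1.28 without overexpressor replicate 2 and -0.73 without overexpressor replicate 1.

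MADS24 (LOC4347517), also named MADS8, is a gene of the SEPALLATA3 type whose product works with other floral MADS proteins in the inner organs. It read 416.4 and 435.0 on the overexpressor arrays and 746.7 and 744.3 on the control arrays. The groups were separate and the replicates close together. The log2 change was -0.80 (SE 0.12, 95% interval -1.10 to -0.51, limma adjusted p = 0.0056), or 1.75-fold lower. The size of the change was nearly the same without control replicate 1 (-0.80, limma adjusted p = 0.0671) or control replicate 2 (-0.81, adjusted p = 0.0629), but the call ended in both, where 1 control array was left and the spread came from the overexpressor arrays alone.

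MADS45 (LOC4346134), also named MADS7, is the close relative of MADS24. It read 390.6 and 505.5 on the overexpressor arrays and 526.3 and 539.3 on the control arrays. The groups did not overlap, but overexpressor replicate 2 lay just under control replicate 1. Its log2 change was -0.26 (SE 0.16, 95% interval -0.66 to 0.14, limma adjusted p = 0.282). The change was -0.44 without overexpressor replicate 2 and -0.08 without overexpressor replicate 1, so its size depended on the overexpressor array used. A difference in response between MADS24 and MADS45 was not tested. The probe sequences of these paralogs, and of the pairs MADS2 and MADS4 and MADS6 and MADS17, were not used here, so hybridisation across a pair was not tested.

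None of the 3 B class genes passed. MADS16 (LOC4342047), the APETALA3-type gene SUPERWOMAN1, encodes the partner that both PISTILLATA-type proteins of rice bind. It read 2065.1 and 1737.0 on the overexpressor arrays and 1739.9 and 1968.1 on the control arrays. The groups overlapped fully, and the log2 change was 0.03 (SE 0.12, 95% interval -0.26 to 0.33, limma adjusted p = 0.861). Its sign turned under median centring and when overexpressor replicate 1 or control replicate 1 was left out.

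MADS2 (LOC4325001), a PISTILLATA-type gene that shapes the lodicules, read 478.3 and 607.1 on the overexpressor arrays and 639.3 and 966.4 on the control arrays. The groups did not overlap, with a wide gap between the control arrays. The log2 change was -0.54 (SE 0.22, limma adjusted p = 0.119, unadjusted p = 0.0488). It was -0.71 without overexpressor replicate 2 and -0.24 without control replicate 2.

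MADS4 (LOC4338842), the second PISTILLATA-type gene, read 189.9 and 205.8 on the overexpressor arrays and 248.9 and 245.2 on the control arrays. Both overexpressor arrays were lower than both control arrays by a small amount. The log2 change was -0.32 (SE 0.18, 95% interval -0.75 to 0.12, limma adjusted p = 0.236).

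Neither gene of the AGL6 group passed. MADS6 (LOC4330328), known as MOSAIC FLORAL ORGANS1 and needed for organ identity and for the end of meristem growth in the spikelet, read 136.4 and 233.2 on the overexpressor arrays and 336.6 and 262.0 on the control arrays. Overexpressor replicate 1 was the lowest of the 4 arrays and overexpressor replicate 2 lay near control replicate 2. The log2 change was -0.72 (SE 0.29, 95% interval -1.43 to -0.02, limma adjusted p = 0.113). It was -1.10 without overexpressor replicate 2 and -0.34 without overexpressor replicate 1.

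MADS17 (LOC4336762), the paralog of MADS6, read 146.6 and 210.9 on the overexpressor arrays and 177.4 and 156.5 on the control arrays. The 2 overexpressor values lay on either side of the control values. The log2 change was 0.08 (SE 0.25, 95% interval -0.53 to 0.68, limma adjusted p = 0.846), and its sign turned under quantile, cyclic loess and median normalization and without overexpressor replicate 2 or control replicate 2.

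**Figure D2:**
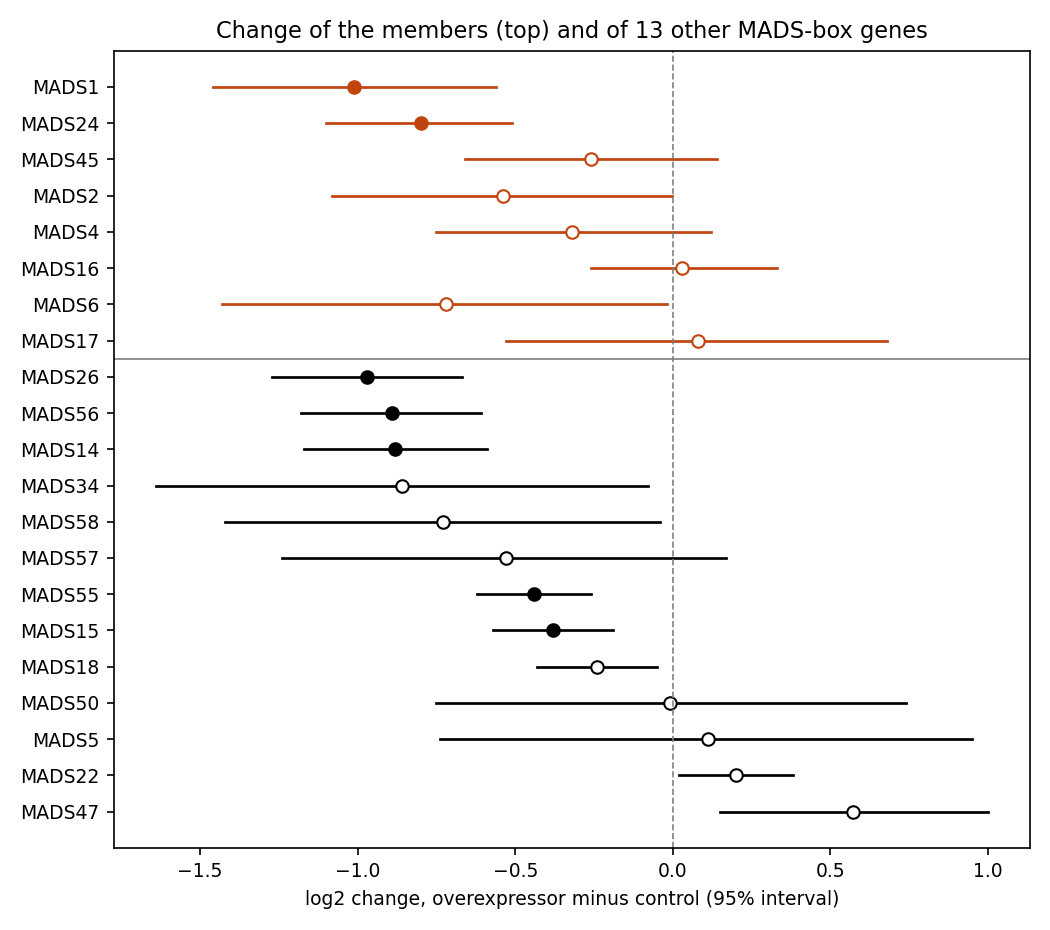
Log2 change, overexpressor minus control, with 95% intervals from limma for the 8 members (above the line) and for the brightest probe set of each of the 13 other tested MADS-box genes (below it). Filled points passed an adjusted p of 0.05; among the members these are MADS1 at -1.01 and MADS24 at -0.80.

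The overexpressor arrays differed between themselves over the members. The log2 difference between the arrays of a group had a median of 0.355 over the members in the overexpressor pair (0.06 to 0.76) and 0.127 in the control pair, against 0.203 and 0.115 over all tested probe sets. In 7 of the 8 members, all but MADS16, overexpressor replicate 1 was lower than overexpressor replicate 2, which was so for 53.0% of the tested probe sets. Without overexpressor replicate 2 the log2 changes of MADS1, MADS2, MADS4 and MADS6 were -1.28, -0.71, -0.37 and -1.10. Those of MADS16, MADS17, MADS24 and MADS45 were 0.16, -0.18, -0.83 and -0.44. Without overexpressor replicate 1 the first 4 genes stood at -0.73, -0.37, -0.26 and -0.34, and the other 4 at -0.09, 0.33, -0.77 and -0.08. Without control replicate 1 or 2, MADS1 stood at -0.97 and -1.05, and MADS24 at -0.80 and -0.81. Each of these fits took its spread from the group with 2 arrays.

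A ratio of 2 genes within an array does not depend on the scaling between arrays. MADS16 was taken as the base after its values had been seen, since its product is the B class partner, a reason that holds for MADS2 and MADS4 only. The log2 change of MADS16 itself was 0.03, so the ratios nearly repeat each gene's own change and are no separate support for it. Set against the mean of the control arrays, the log2 ratio of MADS1 to MADS16 stood at -1.44 and -0.64 on the overexpressor arrays and at 0.13 and -0.13 on the control arrays, a mean change of -1.04. For MADS24 the change was -0.84, for MADS2 -0.58 and for MADS4 -0.35, and each of these 4 ratios was lower on both overexpressor arrays than on both control arrays. The share of all tested probe sets with such a ratio to MADS16 was not computed, so this count is not read as a property of the members. The changes for MADS6 (-0.76), MADS45 (-0.29) and MADS17 (0.04) came with groups that overlapped. With 2 arrays in each group the smallest two-sided p of an exact permutation test is 0.33, which these 4 ratios had, so none of the 7 ratios could pass.

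**Figure D3:**
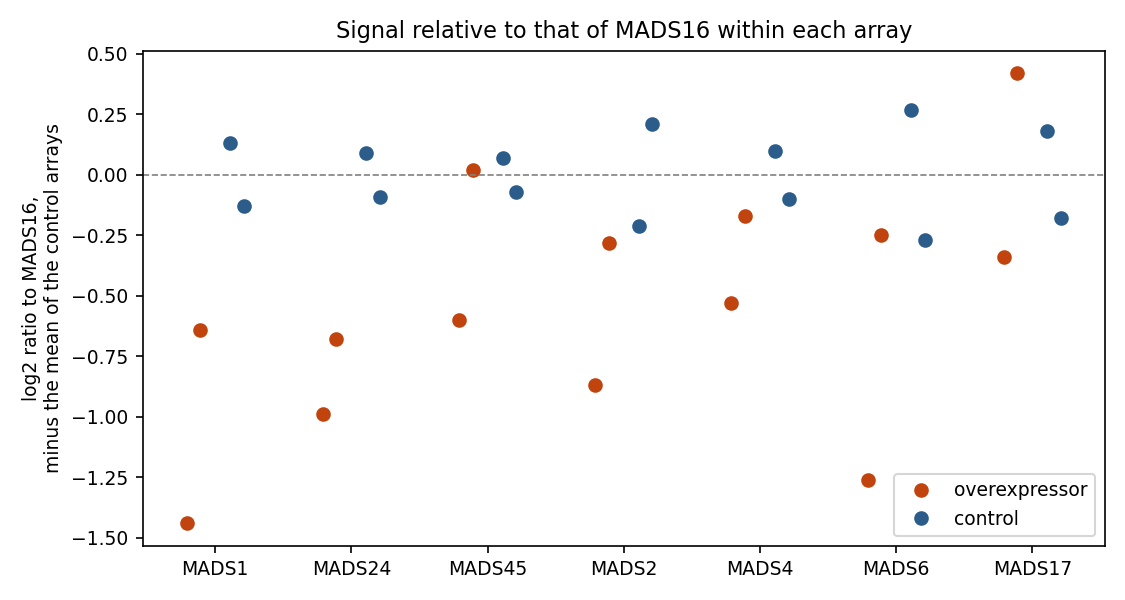
Log2 ratio of each of 7 members to MADS16 on the same array, minus the mean of the control arrays. Points are arrays, overexpressor left of control; for MADS1, MADS24, MADS2 and MADS4 both overexpressor arrays lie below both control arrays.

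The changes of MADS1 and MADS24 kept their sign under all 15 alternatives each, at -1.28 to -0.70 and -0.91 to -0.49, and each passed in 13. Scaling to the hybridisation spikes, which moved the median change of all tested probe sets to 0.39, left MADS1 at -0.70 (limma adjusted p = 0.0149) and MADS24 at -0.49 (adjusted p = 0.0189). MADS4 was negative in all 14 of its alternatives and passed in 0, but stood at -0.00776 after spike scaling (limma adjusted p = 0.976). MADS45 was negative in 12 of 13 and stood at 0.05 after spike scaling, where MADS16 stood at 0.35 and MADS17 at 0.38 without passing.

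**Figure D4:**
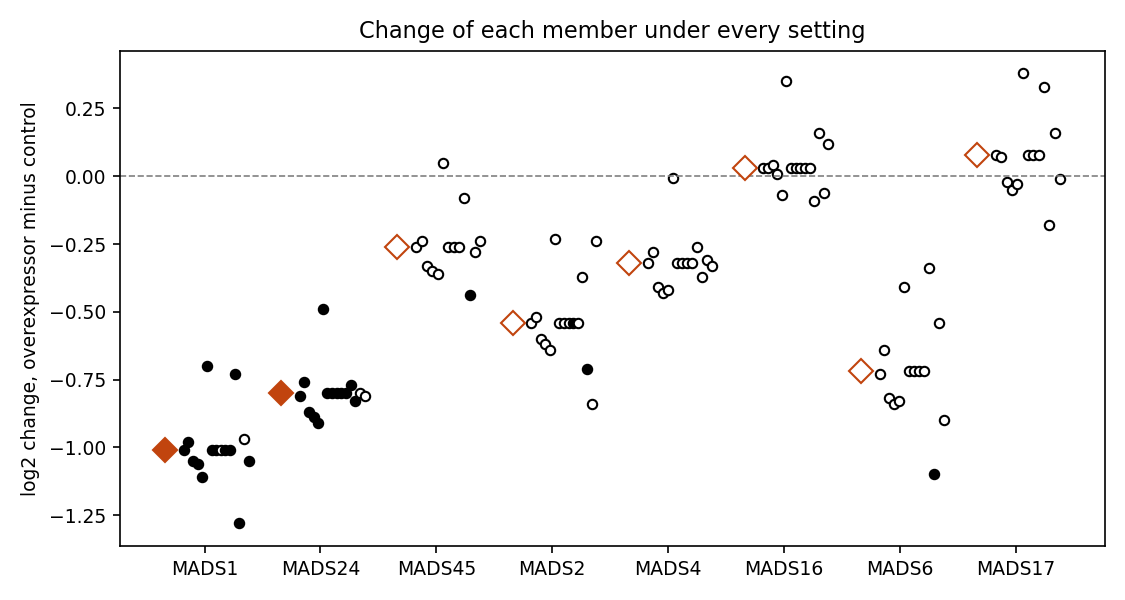
Log2 change of each member, overexpressor minus control, as reported (diamonds) and under every alternative (circles). Filled symbols passed an adjusted p of 0.05; MADS1 and MADS24 stay below 0 throughout, and MADS16 and MADS17 lie on both sides of 0.

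Of the 23 other MADS-box genes with a probe set, 13 were tested, counted by their brightest probe set. By this count 5 were lower, 0 higher and 8 not past, with a median log2 change of -0.44. The shares over all tested probe sets were 13.1% lower and 15.4% higher. Among the A class or FRUITFUL-type genes, which act in the switch to flowering, MADS14 read 2356.8 and 2969.2 on the overexpressor arrays and 4905.1 and 4848.2 on the control arrays. Its log2 change was -0.88 (SE 0.12, limma adjusted p = 0.00384), and 3 of its 4 probe sets passed as lower. MADS15 read 3719.9 and 3960.9 against 4998.5 and 4969.4 on the control arrays (log2 change -0.38, limma adjusted p = 0.0161). It lost the call after spike scaling (-0.06, limma adjusted p = 0.605) and without control replicate 1 (adjusted p = 0.155) or 2 (0.142), and without a trend (0.0841). Of the 4 probe sets of MADS15 the dimmest stood at 0.09 (limma adjusted p = 0.867), and the others passed as lower. MADS20 lay within background on all 4 arrays. MADS18, the gene that shares the name MADS2, read 3409.6 and 3458.1 on the overexpressor arrays and 4001.8 and 4106.1 on the control arrays (-0.24, limma adjusted p = 0.0623). Leaving out overexpressor replicate 1 or 2 hardly moved its change (-0.23 and -0.25). Among the fits of all 4 arrays, it passed under median centring (-0.34, limma adjusted p = 0.0211) and with a filter at the 75th percentile (adjusted p = 0.0464). Its sign turned after spike scaling (0.07).

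The remaining E class genes did not pass. MADS34, which shapes the panicle and lies next to MADS14 in the RefSeq assembly, read 117.5 and 233.9 on the overexpressor arrays and 307.0 and 300.4 on the control arrays. Both overexpressor arrays were lower, but far apart (log2 change -0.86, SE 0.32, limma adjusted p = 0.0945). The change was -1.34 without overexpressor replicate 2 and -0.37 without overexpressor replicate 1. MADS5 read 144.2 and 302.0 against 209.0 and 179.6 on the control arrays (0.11, limma adjusted p = 0.846). Its change stood at 0.63 without overexpressor replicate 1 and at -0.42 without overexpressor replicate 2.

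In the C class, which specifies stamens and carpels, MADS58 read 85.0 and 116.7 on the overexpressor arrays and 195.6 and 143.7 on the control arrays. Its log2 change was -0.73 (limma adjusted p = 0.104), with -0.95 without overexpressor replicate 2 and -0.51 without overexpressor replicate 1. MADS3 was too dim to be tested. It read 26.8 and 20.6 on the overexpressor arrays, within background, and 67.9 and 83.4 on the control arrays, at least 1.82-fold lower on the overexpressor arrays by the background level. Of the D class genes of the ovule, MADS21 lay within background on all 4 arrays, and MADS13 read 8.8 and 54.5 on the overexpressor arrays and 47.1 and 73.0 on the control arrays.

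Outside the floral classes, MADS26 (443.9 and 411.4 on the overexpressor arrays, 816.7 and 867.5 on the control arrays; log2 change -0.97, limma adjusted p = 0.00311) and MADS56 of the SOC1 group (1276.6 and 1551.7, against 2572.8 and 2663.3; -0.89, adjusted p = 0.00329) were lower. MADS55 of the SVP group also fell (-0.44, limma adjusted p = 0.00832). Its call was lost without control replicate 1 (-0.43), without control replicate 2 (-0.45), after spike scaling (-0.12) and without a trend (adjusted p = 0.0598). Its relatives MADS22 (0.20, adjusted p = 0.0878) and MADS47 (0.57, adjusted p = 0.0545) did not pass. Both were higher in all 4 pairs, as were 39.7% of all tested probe sets. Lower genes were thus found both inside and outside the floral classes, and a difference between these sets was not tested.

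Of 11 measured genes that regulate flower development from outside the MADS family, 9 were tested, with 2 lower, 1 higher and 6 not past (median log2 change -0.04). Over all tested probe sets 13.1% were lower and 15.4% higher, and with so few genes these counts are not read as a property of the group. DL, a YABBY gene of carpel identity and of the leaf midrib that lies next to MADS1 in the RefSeq assembly, read 89.1 and 82.2 on the overexpressor arrays and 96.9 and 121.7 on the control arrays (-0.33, limma adjusted p = 0.412). YAB5, the YABBY gene TONGARI-BOUSHI1 of spikelet meristems, rose (1.38, SE 0.38, limma adjusted p = 0.0389), with 215.5 and 497.8 on the overexpressor arrays and 127.6 and 120.3 on the control arrays, a call lost without control replicate 1 (adjusted p = 0.0973) or control replicate 2 (adjusted p = 0.109), under median centring (0.0555), without the filter (0.0802) and without a trend (0.0949). LOG, which activates cytokinin in meristems, was lower at 1871.7 and 2789.5 against 4927.6 and 5038.6 on the control arrays (-1.12, limma adjusted p = 0.0063), and so was EG2, a jasmonate repressor gene (-0.57, limma adjusted p = 0.00285, and -0.25 with adjusted p = 0.0681 after spike scaling).

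Some transcripts of anthers were lower on the overexpressor arrays. Of 13 anther and tapetum genes 10 were tested, with 5 lower (RTS, C4, C6, RAFTIN1 and CYP703A3), 0 higher and 5 not past, beside 13.1% lower and 15.4% higher over all tested probe sets. The list was chosen with earlier results of these data known, so this contrast is a description only. Of those not past, MEL1 (log2 change 0.85), MSP1 (0.37) and GAMYB (0.30), genes that act in anthers, read higher in all 4 pairs. So did 39.7% of all tested probe sets. The summed signal of the 13 was 2403.6 and 2064.3 on the overexpressor arrays and 15521 and 16168 on the control arrays. RTS, C4 and C6 made up most of it on the control arrays, and the other 10 genes summed to 1475.3 and 1531.5 on the overexpressor arrays and 2415.0 and 2480.1 on the control arrays. None of the 13 was listed at 0, and RTS, a tapetum gene, lay within background on both overexpressor arrays (10.8 and 3.8, against 3702.3 and 4044.3 on the control arrays, at least 93.8-fold lower, limma adjusted p = 0.000164). The summed signal of the 8 floral MADS genes was 4385.1 and 4760.6 on the overexpressor arrays and 5826.3 and 6219.1 on the control arrays. The part of anther or other spikelet tissue in the MADS-box differences was not tested. Of 5 meristem genes 4 were tested and 1 was lower, beside 13.1% over all tested probe sets. This was the KNOX gene OSH1 by its brightest probe set (-0.44, limma adjusted p = 0.0212), and its other probe set did not pass (-0.19, adjusted p = 0.322). The call of OSH1 was lost without control replicate 1 (adjusted p = 0.121) or control replicate 2 (adjusted p = 0.209), after spike scaling (-0.13) and without a trend (adjusted p = 0.0742).

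The florigen gene Hd3a, whose product moves from leaf to shoot apex, read 158.5 and 121.3 on the overexpressor arrays and 413.0 and 397.5 on the control arrays, a log2 change of -1.52 (SE 0.20, limma adjusted p = 0.00345). Hd1, a regulator of Hd3a, was too dim to be tested and read 105.0 and 119.4 on the overexpressor arrays and 42.0 and 15.5 on the control arrays. As a sign of RNA integrity, the log2 ratio of 3' over 5' signal overlapped between groups for cyclophilin (1.10 and 0.78 on the overexpressor arrays, 1.02 and 1.27 on the control arrays) and actin (2.29 and 1.92, against 2.20 and 2.32 on the control arrays), and was slightly lower on the overexpressor arrays for ubiquitin (-0.57 and -0.59, against -0.50 and -0.56).

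By shape over the 4 arrays, the mean profile of the 8 members, as log2 values centred on each gene, was -0.38 and -0.07 on the overexpressor arrays and 0.21 and 0.23 on the control arrays. MADS4 and MADS45 lay closest to it, both with a root mean square difference of 0.09, and MADS16 (0.31) and MADS1 (0.30) farthest. Among 2222 other tested genes with a symbol the closest were CAX3 (0.018), CPK1 (0.026), DI19-4 (0.030), FIL1 (0.030) and M-PTH (0.041). CAX3, a cation exchanger gene, read 1245.1 and 1587.0 on the overexpressor arrays and 1890.7 and 1956.9 on the control arrays. Over 4 arrays in 2 groups many genes come close to any such profile, so the likeness is a description only.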

How the data were processed

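The deposited table gives an intensity per probe set on a linear scale, made by software not given in the sources used here. The trimmed mean (2% at each end) was 500.1 on each array, so the values were kept as deposited. Probe sets were assigned to genes by the platform annotation, in which 22436 are paired with 1 gene, and names came from the RefSeq table of assembly ASM3414082v1. No sequences or coordinates are given. A pseudocount of 3.6 (10th percentile of all values) was added before log2, which understates changes of dim transcripts. The 123 control probe sets and those with a mean log2 value below the median were left out, and 28629 were fitted with limma 3.58.1 in R 4.3.3 (lmFit, eBayes with a trend), two-sided, with Benjamini-Hochberg adjustment over all of them. All 8 members passed the filter. A gene with several probe sets is counted by its brightest. A fold against a group within background is taken to the background level on the log2 scale. The fit was tested on simulated data.

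The members and lists were chosen with earlier results of these data known. Named genes are all members, other MADS-box genes past the test or of the A, C, D and E classes, up to 4 past genes per list, and the 5 genes closest to the members' mean profile. MADS22, MADS47, DL, Hd1, CYP703A3, MEL1, MSP1, GAMYB, RR6 and the summed lists were added after their values were seen. Listed names that belong to another gene (IDS1, RCN1 and 1 locus each of TIP2, CP1 and YAB5) were left out.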

Additional observations from a re-analysis of the deposited data

How the results depend on the processing

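The members' count of 2 lower became 1 without a trend in limma, 0 to 5 with 1 array left out and 4 at an unadjusted p of 0.05, a rule chosen after seeing the data, and their count of 0 higher was the same under every alternative run. With MADS18 among the members, also chosen after seeing the data, it stayed at 2. The other MADS-box genes had 5 lower and 0 higher, which became 3 and 2 after spike scaling, 3 lower without a trend, 3 lower without probe sets able to hybridise to several transcripts, 1 higher under quantile and under cyclic loess normalization, and 3 to 8 lower and 0 to 2 higher with 1 array left out. The flower, anther and meristem genes had 8 lower and 1 higher, with higher counts of 0 under median centring, without the filter and without a trend, of 6 after spike scaling and of 0 to 3 with 1 array left out. Over all probe sets 4410 were higher and 3760 lower, against 11478 and 2117 after spike scaling, 2580 and 2461 without a trend, and 1412 to 6152 and 1607 to 5233 with 1 array left out. The cause of these shifts was not tested.

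Signs turned for MADS16 (-0.07 under median centring, -0.09 without overexpressor replicate 1, -0.06 without control replicate 1, up to 0.16 without overexpressor replicate 2 and 0.35 after spike scaling), for MADS17 (-0.02 under quantile, -0.05 under cyclic loess and -0.03 under median normalization, -0.18 without overexpressor replicate 2, -0.01 without control replicate 2, up to 0.33 without overexpressor replicate 1 and 0.38 after spike scaling), for MADS45 (0.05) and MADS18 (0.07) after spike scaling, and for MADS5 (-0.01 under cyclic loess, -0.42 without overexpressor replicate 2, -0.000496 without control replicate 2, up to 0.63 without overexpressor replicate 1). The cause was not tested.

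The replicate numbers are shared between groups, but the labels do not say that a number marks a shared batch, and the deviations of same-numbered arrays correlated at -0.021 over the tested probe sets. With the replicate number as a block, 3 members were lower, the third being MADS2 (-0.54, adjusted p = 0.0316), 1 other MADS-box gene was higher, and 4236 probe sets were higher and 3695 lower. Precision is limited by 2 arrays per group, and dim genes such as MADS3 have only bounds.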
